A study of Mus musculus with 3 samples.

Results

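The piRNA pathway genes described here are 10 mouse genes: Piwil2, Piwil4, Fkbp6, Tdrd1, Tdrd6, Tdrkh, Mov10l1, Mael, Asz1 and Ddx4. They were found as non-control spots of the arrays whose gene name, or current symbol reached through an accession or synonym, is one of these names. All 10 were found, on 15 of the 41174 probes and among 27670 gene names. Total RNA of mouse embryonic stem (ES) cells was labelled with Cy3 and read on 3 Agilent arrays of 1 colour, 1 array per sample. The labels give 2 samples of genotype Tet1 KO (KO 4 and KO 22) and 1 of genotype Tet1 WT, so the wild type group has no replicate. All 3 samples carry the cell line name V6.5 and a mixed 129 and C57BL6 background, and all were cultured with LIF on irradiated feeders and preplated, a step that removes feeders by letting them settle. Whether KO 4 and KO 22 are separate clones, lines or cultures is not stated, so p-values measure the spread between these samples alone, and that spread may be technical.

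PIWI-interacting RNAs (piRNAs) are small RNAs bound by PIWI proteins, a germline branch of the Argonaute family. Long precursor transcripts are handed to processing factors on the outer mitochondrial membrane, cut, trimmed and loaded into PIWI proteins, which then silence transposons by cleaving their RNA or, in fetal male germ cells, by directing DNA methylation. The pathway is known chiefly from testis. Tet1, the gene targeted here, encodes an enzyme that oxidises 5-methylcytosine in DNA.

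Values are processed spot intensities (arbitrary scanner units) or levels, meaning log2 of the intensity relative to the 75th percentile of the array. Differences are knockout minus wild type on the log2 scale, with standard errors from limma (n = 2 against 1) and p-values adjusted over all 17707 genes tested. At 1 residual degree of freedom, moderation draws the SD of each gene toward a shared prior of 0.09. The smallest standard errors of the fit also lie near 0.09, so such an error is close to a common minimum. Probes spotted more than once gave a technical yardstick: their spots differed by a median SD of 0.057 on KO 4, 0.07 on KO 22 and 0.068 on WT.

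The Tet1 probe gave 213.8 on KO 4 and 195.4 on KO 22, against 720.9 on wild type, a difference of -1.94 ± 0.09 that missed the threshold of 0.05 (limma adjusted p = 0.0527). Where the probe lies relative to the targeted exons was not analysed here. Each array had 62.2% to 62.8% of its 43379 non-control spots well above background and 0 saturated spots. Of the ES cell markers 9 of 9 measured were above background on all 3 arrays, with summed linear levels of 256.7 and 257 on KO 4 and KO 22, against 248.1 on wild type. Of these 9, 6 were lower and 3 higher on both knockout arrays, where 45.5% and 38% of all genes tested were. The median difference of the 9 was -0.12. At an unadjusted p below 0.05, 3 were lower and 1 higher, where 15% and 13.2% of all genes were. Pou5f1 and Esrrb both stood at -0.47 ± 0.09. The most abundant, Klf4, stood at 0.40 ± 0.09, and without it the sums were 155.8 and 156.7 on KO 4 and KO 22, against 172.1 on wild type. Y-linked transcripts moved with genotype: Eif2s3y gave 17.3 and 19.8 on KO 4 and KO 22, against 842 on wild type (limma adjusted p = 0.0345). The part of that difference in the results below was not tested.

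Of the 15 member probes, 9 were well above background on all 3 arrays, 2 on the wild type array alone and 4 on none. The brightest probe of a gene stood for it in the fit. Thus 8 of the 10 genes were tested, each through a probe above background on every array, and Tdrd6 and Asz1 were not.

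**Figure D1:**
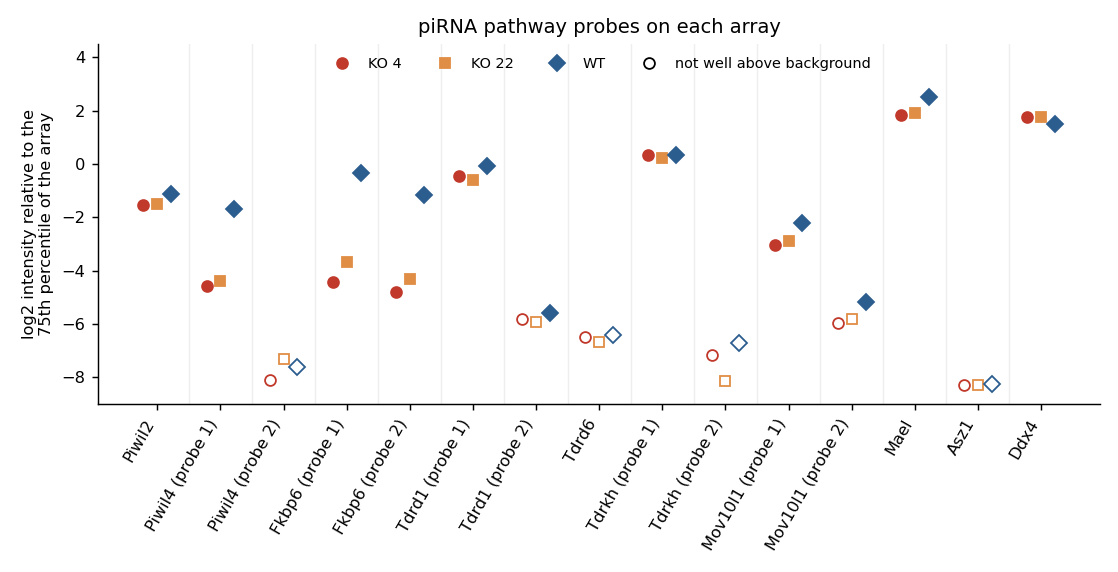
Level (log2 intensity relative to the 75th percentile of the array) of each of the 15 member probes on KO 4, KO 22 and wild type; open symbols were not well above background. Both Fkbp6 probes and 1 Piwil4 probe lie far lower on the knockout arrays, and Ddx4 lies slightly higher on them.

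In the knockout cells 2 members stood far below wild type: Fkbp6 was 13-fold and Piwil4 6.9-fold lower. Mov10l1, Mael, Tdrd1 and Piwil2 were 1.34-fold to 1.71-fold lower on both knockout arrays, Tdrkh lay at the wild type level, and Ddx4 was 1.21-fold higher. None of the 8 passed the threshold over all genes. limma called 57 genes lower and 6 higher in all (0.322% and 0.0339% of those tested), and 6 members were lower and 0 higher at an unadjusted p below 0.05 (background 15% and 13.2%). Both knockout arrays lay at least 2-fold below wild type for 2 of 8 tested members, against 1.56% of all genes tested and 0.799% of those above background on all 3 arrays. No member lay at least 2-fold above it, against 1.45% of all genes. On both arrays 6 members were lower (background 45.5%) and 1 higher (background 38%). The median difference of the 8 was -0.55, beside -0.03 over all genes tested. Their summed linear level was 9.5 on KO 4 and 9.61 on KO 22, against 12.5 on wild type. These counts come from members chosen with earlier results of these data known.

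**Figure D2:**
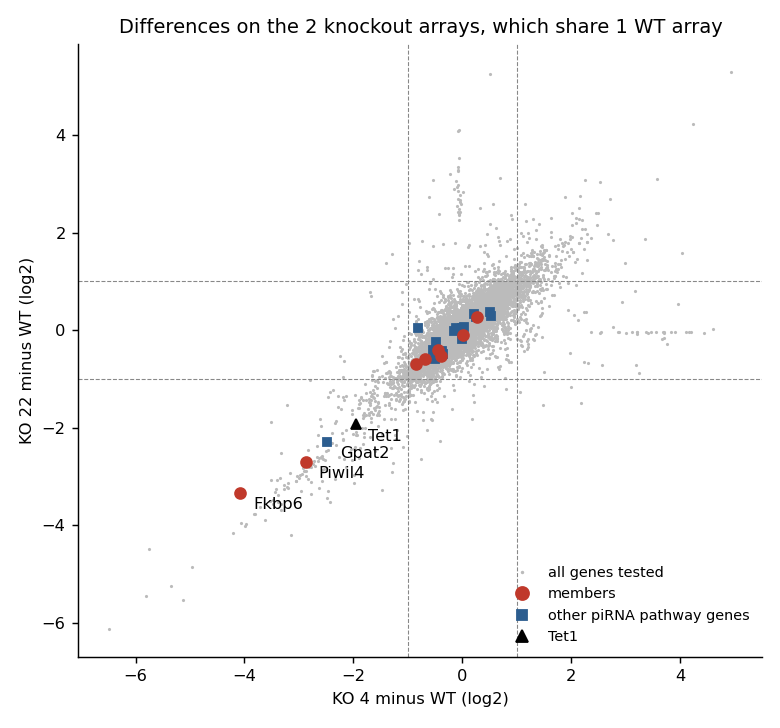
Difference from wild type on KO 4 (x axis, log2) and on KO 22 (y axis, log2) for all 17707 genes tested (grey), the 8 tested members (red), 17 other piRNA pathway genes (blue) and Tet1 (black); dashed lines mark 2-fold. Fkbp6, Piwil4 and Gpat2 lie beyond 2-fold on both arrays, which share 1 wild type array.

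Among the PIWI proteins, Piwil4 had the larger difference. Piwil4 (MIWI2) is the nuclear PIWI protein that in fetal male germ cells directs DNA methylation of transposons. Its brighter probe (A_52_P14778, chromosome 9 from 14537500 to 14537559 on build mm7, minus strand) gave 30.3 on KO 4 and 30.8 on KO 22, against 193.1 on wild type. Both knockout values were well above background and near each other, and wild type stood clear of both. The difference was -2.79 ± 0.13 and missed the threshold narrowly (limma adjusted p = 0.052). It passed with only probes above background on all 3 arrays (adjusted p = 0.0291), in the authors' deposited matrix (-2.39, adjusted p = 0.0139), with an intensity trend (adjusted p = 0.00182) and in a fit on single probes (adjusted p = 0.0418). Over gene-level settings the limma adjusted p ran from 5.29e-13 with normexp as planned to 0.17 without a filter on dim probes. Normexp as planned, a background correction of all spots, called 48.7% of all genes lower and 29.4% higher. The size of the difference shrank to -1.59 with normexp background correction without spots below their own background. Both normexp settings add an offset of 50 units to each spot, which is more than either Piwil4 knockout value. The part of the offset in the smaller difference was not tested. The Piwil4 spot had 1 neighbour within 2 rows and columns with high signal on wild type alone, as 5.59% of spots had at least 1. No member spot met the rule for clustered spots, so leaving those out kept every member probe in and is no check of this value.

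The other Piwil4 probe (A_51_P299795, 14532007 to 14532066) was not well above background on any array, at 2.61, 4.03 and 3.2 on KO 4, KO 22 and wild type. It measured no difference, and the Piwil4 result therefore rests on 1 probe. Both Piwil4 probes were matched by gene symbol and not by a RefSeq accession. Piwil2 (MILI), the cytoplasmic PIWI protein that cleaves transposon RNA (chromosome 14 from 65017174 to 65017233), gave 245.6 and 227 on KO 4 and KO 22, against 289.4 on wild type. Its difference of -0.42 ± 0.09 had the same sign on both arrays and did not pass (limma adjusted p = 0.127). The Piwil2 spot had 2 neighbours with high signal on wild type alone, as 1.03% of spots had at least 2, and their part in the Piwil2 difference was not tested.

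Fkbp6 had the largest difference of the members. It encodes an Hsp90 co-chaperone of the immunophilin family that in mouse testis takes part in piRNA production and is needed for male meiosis. The brighter probe (A_51_P313444, chromosome 5 from 134263036 to 134263095 on mm7, minus strand) gave 33.3 on KO 4 and 50.2 on KO 22, against 489 on wild type. The second probe (A_52_P330956) gave 25.8 on KO 4 and 32.8 on KO 22, against 278.9 on wild type. It covers 134308970 to 134310799, a span of 1830 bases, where most member probes span 60, so it is split across at least 1 intron. Both probes were above background on every array, and on both of them the wild type value stood far above the knockout values.

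The differences of the Fkbp6 probes were -3.71 ± 0.37 and -3.39 ± 0.26 in the fit on single probes, 13-fold and 10.5-fold, and neither passed (limma adjusted p = 0.0884 and 0.0749). In the gene-level fit the adjusted p was 0.0971, with an error of 0.38. The knockout arrays differed from each other more on Fkbp6 than on any other tested member. KO 4 lay 0.75 below KO 22 on the brighter probe and 0.50 below it on the second probe, and 2.58% of all genes tested had a gap at least as wide as 0.75. That gap is small beside the distance of either array from wild type, which was -4.08 on KO 4 and -3.33 on KO 22. Fkbp6 passed with only probes above background on all 3 arrays (adjusted p = 0.0413), in the deposited matrix (-3.42, adjusted p = 0.0231) and with an intensity trend (adjusted p = 0.00299). Over gene-level settings the limma adjusted p ran from 5.29e-13 with normexp as planned to 0.172 without a filter on dim probes. Normexp as planned called 48.7% of all genes lower and 29.4% higher. Normexp without spots below their own background, with the same offset of 50 units, gave -2.54.

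Ranked by the smaller of both differences among the 16401 genes above background on all 3 arrays, Fkbp6 was the fifth lowest and Piwil4 the tenth lowest. The Tet1 probe ranked 22 on the same scale. These ranks describe 3 arrays and carry no test.

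The promoter windows of both genes, and of 2 genes set beside them, are shown because Tet1 acts on methylated CpG dinucleotides. Gpat2 is another pathway gene with lower values, described below, and Ddx4 is the member that was higher. The windows are RefSeq sequences of build GRCm38.p6, from 250 bases before to 50 after the annotated start, written 5′ to 3′ along the gene with each CpG in capitals.
Fkbp6, chr5:135349864-135350163, minus strand: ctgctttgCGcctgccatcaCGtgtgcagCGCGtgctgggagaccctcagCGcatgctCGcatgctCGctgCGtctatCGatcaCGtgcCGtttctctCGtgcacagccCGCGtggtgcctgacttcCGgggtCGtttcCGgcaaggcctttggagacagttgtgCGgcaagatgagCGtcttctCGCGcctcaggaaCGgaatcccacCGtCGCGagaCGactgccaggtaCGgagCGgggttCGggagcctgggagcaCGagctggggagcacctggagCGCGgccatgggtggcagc
Piwil4, chr9:14740623-14740922, minus strand: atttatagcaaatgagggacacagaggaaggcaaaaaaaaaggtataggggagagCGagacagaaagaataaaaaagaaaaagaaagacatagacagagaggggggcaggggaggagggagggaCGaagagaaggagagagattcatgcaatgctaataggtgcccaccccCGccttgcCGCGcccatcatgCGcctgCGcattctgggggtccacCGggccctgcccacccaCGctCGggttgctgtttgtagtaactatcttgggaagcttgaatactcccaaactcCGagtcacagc
Gpat2, chr2:127424949-127425248, plus strand: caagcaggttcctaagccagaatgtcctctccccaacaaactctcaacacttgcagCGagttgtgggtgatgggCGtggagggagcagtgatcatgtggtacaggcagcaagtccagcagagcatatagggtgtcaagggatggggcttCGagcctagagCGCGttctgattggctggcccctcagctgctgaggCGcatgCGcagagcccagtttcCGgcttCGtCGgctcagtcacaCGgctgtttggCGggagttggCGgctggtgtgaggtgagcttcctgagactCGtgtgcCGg
Ddx4, chr13:112652261-112652560, minus strand: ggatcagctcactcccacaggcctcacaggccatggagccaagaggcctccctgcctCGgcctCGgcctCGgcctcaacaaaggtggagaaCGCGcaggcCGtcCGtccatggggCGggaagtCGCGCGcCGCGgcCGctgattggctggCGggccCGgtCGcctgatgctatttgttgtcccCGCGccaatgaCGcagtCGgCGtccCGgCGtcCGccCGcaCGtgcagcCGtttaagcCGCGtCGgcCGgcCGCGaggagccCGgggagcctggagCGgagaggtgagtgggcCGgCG

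The Fkbp6 window held 32 CpG, the Piwil4 window 11, the Gpat2 window 15 and the Ddx4 window 38, against a median of 7 over all 32851 RefSeq windows of the same length. Among the other members, the window of Mael held 24 CpG, Mov10l1 20, Tdrkh 25 and Asz1 17, and the windows of Tdrd1 held 20, 25 and 3. These arrays did not measure methylation, and a link between CpG count and the differences was not tested. A second annotated Piwil4 window, 14718338 to 14718637, held 0 CpG, and a second Fkbp6 window, which overlaps the one shown, held 21. In all 8 members have a window. The hexamer CACGTG, which is its own reverse complement and contains a CpG, was present in a window of 5 of these 8: Fkbp6, Mov10l1, Mael, Tdrd1 and Ddx4. Counted by window, CACGTG is in 7 of the 12 member windows, some of which overlap. It is in 7.15% of all windows and in 11.6% of those with at least 20 CpG. TCCCGC or its reverse complement GCGGGA was present in a window of 2 of the 8, Mael and Ddx4. By window it is in 2 of the 12, against 20% of all windows and 49.4% of those with at least 20 CpG. Both motifs were chosen with the expression values known, they occur in members with lower and higher values alike, and a match describes only the letters.

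**Figure D3:**
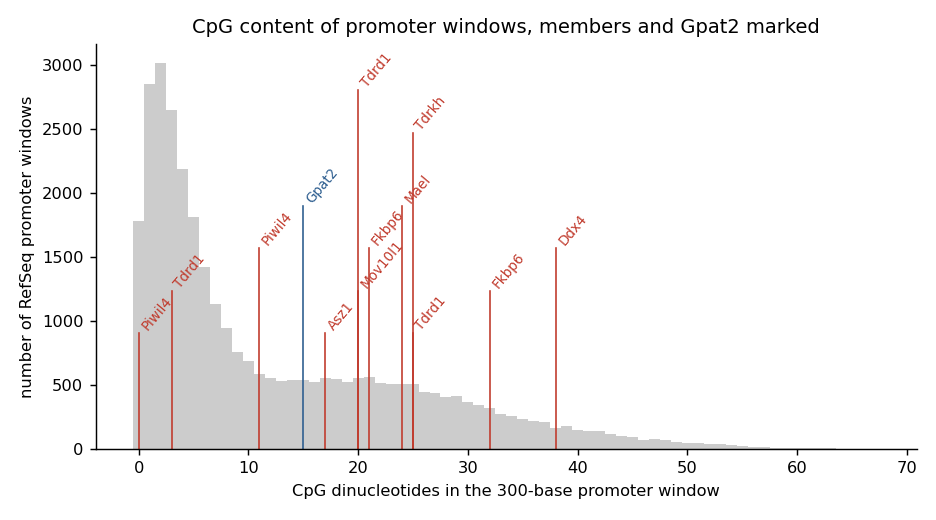
Number of RefSeq promoter windows (y axis) by their count of CpG dinucleotides in 300 bases (x axis), with the windows of 8 members (red) and of Gpat2 (blue) marked by lines whose height carries no value. The Fkbp6 and Ddx4 windows hold 32 and 38 CpG, and the Piwil4 windows 11 and 0.

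The tested Tudor proteins among the members, scaffolds that bind methylated arginines of PIWI proteins, differed by at most 1.38-fold. Tdrd1, the scaffold of the Piwil2 granules (chromosome 19 from 56785896 to 56785955 on mm7), gave 526.1 on KO 4 and 427.1 on KO 22, against 599.2 on wild type. Its difference of -0.46 ± 0.11 did not pass (limma adjusted p = 0.142). Its second probe, which spans 482 bases on chromosome 19, was well above background on the wild type array alone, with 12.7 on KO 4 and 10.7 on KO 22, against 12.9 on wild type. From these signals near background it was 1.21-fold lower, at -0.23 on KO 4 and -0.32 on KO 22. This probe entered the fit on single probes through the wild type array alone, so no p is given for it.

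Tdrkh, a mitochondrial Tudor protein that holds PIWI proteins while piRNA ends are trimmed (chromosome 3 from 94300073 to 94300132), gave 905.8 on KO 4 and 753.4 on KO 22, against 779.2 on wild type. Its sign differed between the knockout arrays, at 0.01 and -0.10, and the mean of -0.04 ± 0.10 did not pass (limma adjusted p = 0.819). The second Tdrkh probe was at 5, 2.3 and 5.91 on KO 4, KO 22 and wild type, not well above background on any array. Tdrd6, a Tudor protein of the chromatoid body of spermatids, was likewise not well above background, at 7.94, 6.32 and 7.27, so these arrays bear on Tdrd6 only as dim signal.

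The RNA-handling factors of precursor processing gave 2 members with lower values. Mov10l1 is the helicase that binds piRNA precursors. Its brighter probe (chromosome 15 from 89136622 to 89136681) gave 86.6 on KO 4 and 86.4 on KO 22, against 135.6 on wild type, a difference of -0.77 ± 0.12 (limma adjusted p = 0.104). The knockout values nearly coincided and lay below wild type. Its second probe, spanning 2747 bases on chromosome 15, was above background on the wild type array alone, with 11.4 and 11.5 on KO 4 and KO 22, against 17.3 on wild type. From these signals near background it was 1.65-fold lower, and it stood at -0.31 on both knockout arrays in the deposited matrix. Again no p is given, since the probe passed the filter on dim probes through wild type alone. Mov10l1 passed with only probes above background on all 3 arrays (adjusted p = 0.0475) and in the deposited matrix (adjusted p = 0.0472).

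Mael, a protein of the germ granules that is needed for transposon silencing in mouse testis (chromosome 1 from 166172164 to 166172223), gave 2554 on KO 4 and 2432 on KO 22, against 3564 on wild type. The difference was -0.64 ± 0.10 and did not pass (limma adjusted p = 0.105). Asz1 (GASZ), a mitochondrial scaffold of the processing machinery, was at 2.3, 2.05 and 2.06 on KO 4, KO 22 and wild type. All 3 Asz1 values were surrogates that the scanner software puts in place of dim signal, so they show no order. Ddx4 (mouse vasa homologue), the germ cell DEAD-box helicase (chromosome 13 from 109754306 to 109754365), gave 2436 on KO 4 and 2189 on KO 22, against 1751 on wild type. Its difference was 0.27 ± 0.09, equal on both arrays to 2 decimals, and did not pass (limma adjusted p = 0.18). Ddx4 was the only tested member higher on both knockout arrays.

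**Figure D4:**
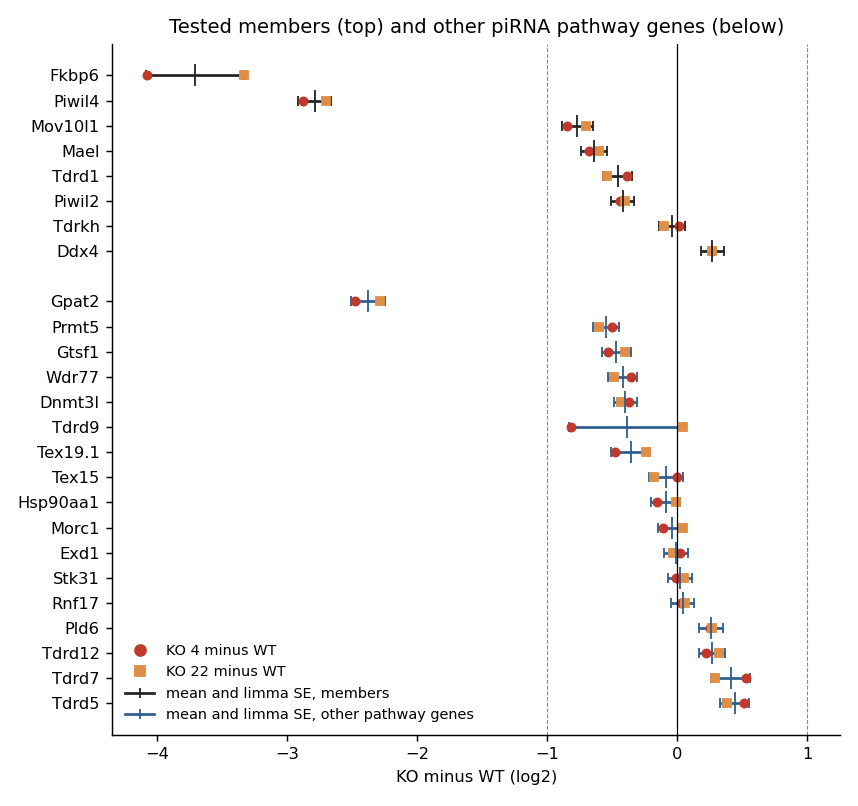
Difference from wild type (x axis, log2) of the 8 tested members (top) and 17 other piRNA pathway genes (below), with KO 4 as circles, KO 22 as squares, and the mean with its limma standard error as bars. Fkbp6, Piwil4 and Gpat2 stand at -3.71, -2.79 and -2.38, and the other genes lie within 2-fold of wild type on the mean.

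A wider list of 24 other pathway genes was set beside the members. The arrays held 20 of them under these names and 17 were tested. Of the 17, 7 were lower on both knockout arrays (background 45.5%), 5 were higher on both (background 38%) and 5 differed in sign. None passed in limma over all genes, with 5 lower and 1 higher at an unadjusted p below 0.05 (background 15% and 13.2%). The median difference was -0.09. Gpat2, a mitochondrial outer-membrane protein of the acyltransferase family needed for piRNA production in mouse germ cells, gave 418.7 on KO 4 and 428.5 on KO 22, against 2026 on wild type. It was the only one of the 17 at least 2-fold lower on both arrays, with a difference of -2.38 ± 0.13 (5.22-fold, limma adjusted p = 0.0633). Its probe (A_51_P497768) lies on chromosome 2 from 127176823 to 127176882 on mm7. Gpat2 passed with only probes above background on all 3 arrays (adjusted p = 0.0291), in the deposited matrix (-2.28, adjusted p = 0.0147) and with an intensity trend (adjusted p = 0.00061). Its adjusted p ran up to 0.17, without a filter.

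The next largest differences in that list were small. Prmt5, the enzyme that dimethylates PIWI arginines, stood at -0.55 ± 0.10, and its partner Wdr77 at -0.42 ± 0.11. All 4 probes of Wdr77 were lower on both knockout arrays, by 0.29 to 0.42 on the mean (log2). Gtsf1, a zinc-finger partner of PIWI proteins, stood at -0.47 ± 0.11. On the higher side, the Tudor protein genes Tdrd5 and Tdrd7 stood at 0.44 ± 0.11 and 0.41 ± 0.15. A second, dimmer Tdrd5 probe, above background on all 3 arrays, stood at 0.70 on the mean (1.62-fold). Adjusted p-values of these 5 in limma ran from 0.115 for Prmt5 to 0.201 for Tdrd7. With an intensity trend Prmt5, Wdr77, Gtsf1 and Tdrd5 passed (adjusted p = 0.011, 0.0234, 0.0261 and 0.0317), and Tdrd7 did not (0.0755). Of the 17, that setting called 5 lower and 1 higher, where 10.7% and 8.31% of all genes were. Normexp without spots below their own background also called 5 lower and 1 higher, where 10.6% and 7.72% of all genes were. Piwil1 (MIWI), the PIWI protein of spermatids, was not well above background on any array, at 3.25 and 2.11 on KO 4 and KO 22, against 10.4 on wild type.

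The calls depended on the processing more than the values did. With an intensity trend in limma's variance model 6 members were called lower and 0 higher, where 10.7% of all genes were called lower and 8.31% higher. Those 6 were Fkbp6, Piwil4, Mov10l1, Mael, Tdrd1 and Piwil2. The same 6 were called lower with normexp without spots below their own background, where 10.6% of all genes were called lower and 7.72% higher. With normexp as planned 5 members were called lower and Ddx4 higher, where 48.7% of all genes were called lower and 29.4% higher. With only probes above background on all 3 arrays the members called lower were Fkbp6, Piwil4 and Mov10l1, where 2.54% of all genes were called lower and 3.12% higher. The deposited matrix called the same 3 lower, where 2.83% of all genes were called lower and 2.71% higher. The fit on single probes held 11 member probes, 2 of them through wild type alone, and called 1 lower, that of Piwil4, where 0.279% of all probes were called lower and 0.0528% higher.

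Other settings called 0 members. With quantile normalization 0.277% of all genes were called lower and 0.0339% higher, with averaged probes 0.322% and 0.0339%, and without clustered spots 0.243% and 0.034%. Without a filter limma called 0 genes, where 3378 genes were lower and 2586 higher at an unadjusted p below 0.05. At an unadjusted p below 0.05, 6 members were lower in each of these 4 settings, where 14.3% of all genes were lower with quantile normalization, 14.2% with averaged probes, 15.1% without clustered spots and 12.2% without a filter. Ddx4 was higher at that p with quantile normalization and without a filter, where 13.4% and 9.35% of all genes were higher.

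**Figure D5:**
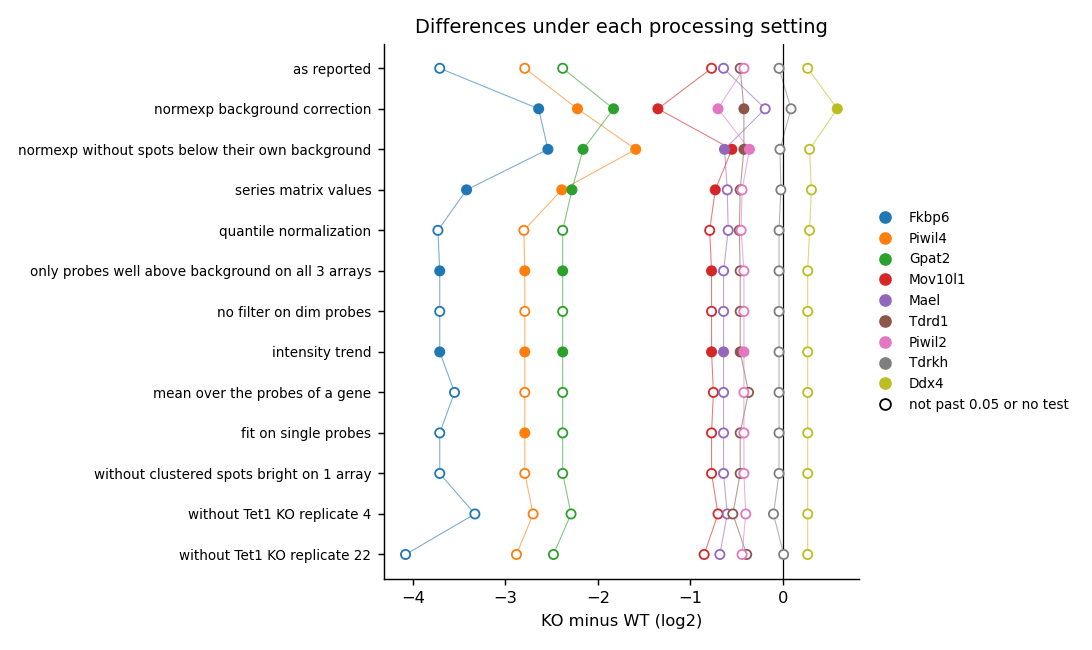
Difference from wild type (x axis, log2) of the 8 tested members and Gpat2 under each processing setting (rows); filled symbols passed an adjusted p of 0.05, open ones did not or had no test. Fkbp6 ran from -4.08 to -2.54, Piwil4 from -2.88 to -1.59 and Gpat2 from -2.48 to -1.83.

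Markers of other cells were read on the same arrays. Of 17 measured germ cell genes outside the pathway, 11 were lower and 3 higher on both knockout arrays, where 45.5% and 38% of all genes tested were. In limma over all genes 0 of the 17 passed. At an unadjusted p below 0.05, 8 were lower and 0 higher, where 15% and 13.2% of all genes were. The summed linear level of the 17 was 16.7 and 19 on KO 4 and KO 22, against 21.7 on wild type. At least 2-fold lower on both arrays were 4 of them, where 1.56% of all genes tested were. Dpep3, Slc25a31, Smc1b and Sohlh2 stood at -1.92 ± 0.37, -1.25 ± 0.09, -1.21 ± 0.14 and -1.18 ± 0.13. These 4 were named after their values were seen. The 3 higher on both arrays were Stra8 at 0.35 ± 0.17, Nanos3 at 0.29 ± 0.18 and Sycp1 at 0.09 ± 0.12. The median difference of the 17 was -0.27. Without Stra8, the most abundant, their summed level was 11.7 on KO 4 and 12.8 on KO 22, against 17.3 on wild type. Of 7 listed genes of the 2-cell-like state 3 were above background on all 3 arrays, and Zscan4c, Tcstv1 and Usp17la stood at -2.82 ± 0.27, -2.69 ± 0.18 and -2.34 ± 0.33. Zfp352 also entered the fit, but passed the filter through wild type alone. Together these genes had a summed level of 0.197 and 0.14 on KO 4 and KO 22, against 1.06 on wild type. Of 12 feeder fibroblast markers 5 were higher and 2 lower on both arrays, where 38% and 45.5% of all genes tested were. The median of these 12 markers lay at 0.78 on KO 4 but -0.06 on KO 22 (log2). Their summed level was 38.6 on KO 4 and 26.8 on KO 22, against 16.8 on wild type. Without Tagln, the most abundant, it was 11.3 on KO 4 and 8.18 on KO 22, against 8.66 on wild type. The part of these marker lists in the differences of the piRNA pathway genes was not tested, and in such bulk RNA fewer cells of a type and less RNA per cell cannot be told apart.

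The chromosomal neighbours of the 3 genes with the largest differences did not share them. This comparison was chosen after the values were seen. For Fkbp6, Piwil4 and Gpat2 the 2 nearest tested protein-coding genes on each side gave 12 neighbours. Their differences ran from -0.33 to 1.31, and 0 were at least 2-fold lower on both arrays, where 1.56% of all genes tested were. The highest, 1700012B09Rik beside Piwil4, passed the filter on dim probes through KO 4 alone. The nearest were Fzd9 at 0.55 and Nsun5 at -0.33 beside Fkbp6, Amotl1 at 0.26 and Fut4 at 0.83 beside Piwil4, and Dusp2 at 0.03 and Fahd2a at 0.59 beside Gpat2.

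The genes whose 2 differences lay nearest to those of Fkbp6, by Euclidean distance over both knockout arrays, were led by Aqp8, a water channel gene, at -3.71 on KO 4 and -3.63 on KO 22 (distance 0.48). It was the only one of the 5 nearest that was above background on all 3 arrays. Hivep3 and Slfn8 were among the others, at distances of 0.51 and 0.61. For Piwil4 the 5 nearest, Slco2b1 among them (distance 0.16), were all below background on at least 1 knockout array. Only genes above background on wild type were compared, so any gene dim on an array was dim on a knockout array. The differences of such dim genes rest partly on signal near background, and their likeness to Fkbp6 or Piwil4 carries no support. With 3 arrays such likeness rests on a pair of numbers per gene.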

How the data were processed

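Per the file headers, the scanner files give each spot's processed intensity from Agilent Feature Extraction, with spatial and multiplicative detrending within the array. Dim signal is replaced by surrogates. The deposited series matrix holds log2 values (median 5.52 in each column, correlation with the log2 mean intensity 0.991 to 0.993). Its centring and background correction are unknown, and the submitters' processing notes name limma.

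Controls and outlier-flagged spots were dropped, repeated spots averaged, and log2 processed intensities centred on each array's 75th percentile (717.7 on KO 4, 644.9 on KO 22, 623.7 on wild type). Names came from the RefSeq table (GRCm38.p6; 79.5% of probes matched). Of the 15 member probes 11 matched by accession and 4 by symbol. Probe positions are the files', on mm7. Probes above background on at least 1 array were kept, the brightest per gene, and compared with limma 3.58.1 in R 4.3.3 (Benjamini-Hochberg, threshold 0.05). The fit has 1 residual degree of freedom (3.03 after moderation) and assumes that the lone wild type array varies like the knockout pair. Precision is limited by the number of arrays.

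The limma fit was tested on simulated data in which the wild type array varied like the knockout pair, so that assumption itself was not tested. Named were all members, Tet1, the 6 other pathway genes with the largest mean difference, nearest genes by difference, and a few markers. Members and lists were chosen with earlier results of these data known.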

Additional observations from a re-analysis of the deposited data

How the results depend on the processing

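The count of genes called in limma, 63 as reported (6 higher, 57 lower), depended on the setting. It was 13842 with normexp as planned (5213 higher, 8629 lower), 3237 with normexp without the 8 spots below their own background (1367 and 1870), 981 from the deposited matrix (480 and 501), 928 with probes above background on all 3 arrays (512 and 416) and 3373 with an intensity trend (1472 and 1901). Without a filter limma called 0 (0 and 0), with 3378 lower and 2586 higher at an unadjusted p below 0.05. The fit on single probes called 14 probes higher. The cause was not tested, apart from the number of genes that each filter leaves.

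The count of members at least 2-fold lower on both arrays was 2 under every alternative run, other than normexp as planned, where Mov10l1 (-1.35) made it 3. The median difference of the members was -0.56 with normexp as planned, where the median of all genes moved to -0.20. It was -0.48 with normexp without the 8 spots, and -0.53 with the deposited matrix, quantile normalization and averaged probes. Without a filter, which lets in the dim Tdrd6 and Asz1, the median was -0.44. Over single probes it was -0.64. Of those 11 probes 2 passed the filter through wild type alone, and Fkbp6, Tdrd1 and Mov10l1 counted with 2 probes each. Leaving out 1 knockout array gave medians from -0.57 to -0.56. The sign turned for Tdrkh at 0.09, Prmt5 at 0.01, Wdr77 at 0.06 and Tdrd7 at -0.15 with normexp as planned, which turned 9 of the 17 other pathway genes in all (Rnf17, Stk31, Hsp90aa1, Tex19.1, Morc1 and Dnmt3l too), and for Tdrkh at 0.01 without KO 22 (-0.10 without KO 4). Rnf17 also turned with the deposited matrix and Morc1 with quantile normalization. No paired analysis was possible because the wild type group holds 1 sample. All arrays share 1 slide and 1 scan run. Leaving out a knockout array leaves 1 array per genotype and thus no test.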
